A study of Sus scrofa with 6 samples.

Results

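THBS1, THBS2 and POSTN encode thrombospondin-1, thrombospondin-2 and periostin, 3 matricellular proteins, and their 8 probe sets were described across 6 pig cell samples. All probe sets that the platform annotation assigns to exactly 1 of the 3 symbols were taken: 5 for THBS1, 1 for THBS2 and 2 for POSTN, out of 23999 probe sets and 6765 annotated genes. The genes were selected on earlier results of these data, in which they lay lower in induced pluripotent stem (iPS) lines than in embryo fibroblasts. Their values in the comparison of iPS lines with somatic cells are therefore a description with no test.

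RNA of each sample was hybridised to 1 Affymetrix Pig Genome Array. There were 4 iPS lines, which the labels call pluripotent and separate by stage-specific embryonic antigens (SSEA), surface glycans used as markers of such cells. Line PS24 carried all 3 antigens (SSEA1, SSEA3, SSEA4). Line 30AC5 carried SSEA1. Both iPF4-2 and iPSCs-w carried SSEA3 with SSEA4. The 2 somatic samples were PEF, porcine embryo fibroblasts, and PAFSC, porcine amniotic fluid stem cells. All cells were grown in DMEM with 15% serum for 72 hours. The iPS lines were kept on mouse embryonic fibroblast feeder layers, and the labels do not say whether the feeders were removed before RNA extraction. They also do not give the reprogramming factors, the donor cells of each line, ages or repeated cultures. Each line is 1 sample, so no array has a replicate of its own, and the number of arrays limits the precision.

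Matricellular proteins are secreted into the extracellular matrix but do not build its fibres. They bind matrix proteins, growth factors, proteases and cell surface receptors, and so change how cells attach, migrate and respond to signals. Thrombospondin-1 can activate latent TGF-beta and restrains blood vessel growth through its receptors CD36 and CD47. Thrombospondin-2 is its close relative, also anti-angiogenic, and helps clear the protease MMP2 from the cell surface. Periostin binds integrins, fibronectin and tenascin-C and assists collagen cross-linking. These roles are known mainly from human and mouse, where cultured fibroblasts are a usual source of all 3.

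Values are on a log2 scale, each probe set with its own unstated baseline, so arrays can be compared within a probe set and levels of different genes cannot. The PAFSC array stood apart: its median over all probe sets was 0.70 and its SD 2.01, against medians from -0.06 to 0.05 and SDs from 0.610 to 0.808 on the other 5 arrays. Over 5 pairs of control probe sets for actin, GAPDH and EF1A, the mean 5′ minus 3′ value was -1.24 in PS24, 0.07 to 0.30 in the other iPS lines, 0.12 in PEF and 1.22 in PAFSC. Of the pluripotency markers, POU5F1, which encodes OCT4, was 3.61 in iPSCs-w and 3.68 in iPF4-2, against -0.50 in PEF and 1.09 in PAFSC. It was 0.07 in PS24 and -0.07 in 30AC5, below PAFSC, although the labels call both lines pluripotent. The differences of THBS1, THBS2 and POSTN from PEF are therefore also given for iPF4-2 and iPSCs-w without these lines, while partner genes and calls are given for all 4 lines.

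THBS2, with the single probe set Ssc.992.1.S1_at, varied little across the iPS lines and was highest in PEF. It was -0.10 in PS24, -0.28 in 30AC5, -0.07 in iPSCs-w and 0.05 in iPF4-2, against 5.59 in PEF and 1.36 in PAFSC. The 4 iPS lines lay within 0.33 of each other and below both somatic samples, and PEF stood far above all other arrays. The mean over the iPS lines was -0.10 ± 0.14 (SD, n = 4), a difference of -5.69 from PEF and of -1.46 from PAFSC. The difference from PEF was -5.60 for iPF4-2 and iPSCs-w and -5.78 for PS24 and 30AC5. In bulk RNA, fewer cells of a type and less RNA per cell cannot be told apart.

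Because the values of the PAFSC array are shifted and spread, the percentile of a relative value among all relative values of its array is given too. It does not rank expression levels between genes. THBS2 lay at the 99.9th percentile of the PEF array, where 27 probe sets had higher values, and at the 64.3rd percentile of the PAFSC array. In the iPS lines it lay between the 22.0th and the 54.6th percentile. PEF was thus the array with the highest percentile of THBS2.

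POSTN was represented by probe sets that differed from each other. With Ssc.7266.1.A1_at it was 0.20 in PS24, -0.33 in 30AC5, -0.48 in iPSCs-w and 3.01 in iPF4-2, against 7.11 in PEF and 1.17 in PAFSC. PEF was the highest array and iPF4-2 the second, above PAFSC, while the other 3 iPS lines lay below both somatic samples. Only 6 probe sets had a higher value on the PEF array, and 86 had a higher value on the iPF4-2 array. The mean over the iPS lines was 0.60 ± 1.63 (SD, n = 4), a difference of -6.51 from PEF and of -0.58 from PAFSC. For iPF4-2 and iPSCs-w alone the difference was -5.85 from PEF and 0.09 from PAFSC.

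The other POSTN probe set, Ssc.7969.1.A1_at, varied little. It was 0.04 in PS24, 0.12 in 30AC5, 0.14 in iPSCs-w and -0.25 in iPF4-2, against 1.01 in PEF and 1.73 in PAFSC. All 4 iPS lines lay below both somatic samples, but PAFSC was here above PEF and iPF4-2 was the lowest array. The mean of PS24 and 30AC5 differed from PEF by -0.93, and that of iPF4-2 and iPSCs-w by -1.07. Over the 6 arrays the pair of POSTN probe sets had a Pearson correlation of 0.312. The high value of iPF4-2 therefore rests on 1 of the 2 probe sets.

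Fibroblast markers were looked at beside this value. Of 12 measured fibroblast and mesenchymal genes, 4 had their highest iPS value in iPF4-2, as did 1377 of all 6765 genes. The mean of the 12 was -0.12 in iPF4-2, -0.39 in PS24, -0.00 in 30AC5 and -1.29 in iPSCs-w. It was 3.08 in PEF and 3.05 in PAFSC, where DCN had 10.69, against -0.17 in PEF. Over the 2 probe sets of DCN the iPS mean differed from PEF by -4.14 and 0.22, the latter with the probe set given here. The median of the 12 was 2.87 in PEF and 2.16 in PAFSC. LUM, the matrix proteoglycan lumican, had 3.77 in iPF4-2 and -0.69 to -0.02 in the other lines, and FAP, a surface protease of activated fibroblasts, had -0.37 against -1.74 to -1.53. THY1, a fibroblast surface glycoprotein, was -0.06 in iPF4-2, 0.06 in PS24 and -1.51 in iPSCs-w. Its highest iPS value was 1.065 in 30AC5, against 5.75 in PEF and 0.88 in PAFSC. PRRX1 was -3.77 in iPF4-2, -4.99 in iPSCs-w, -0.89 in PS24 and -0.62 in 30AC5. PDGFRB was -1.86 in iPF4-2, -2.96 in iPSCs-w, -2.36 in PS24 and 0.115 in 30AC5. The fibroblast markers thus did not all stand higher in iPF4-2, and their part in the POSTN value was not tested.

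In the deposited values THBS1 was lower in every iPS line than in both somatic samples with each of its 5 probe sets. The probe sets differed in how the somatic samples compared. Ssc.10406.1.A1_at was -0.05 in PS24, -0.22 in 30AC5, -0.32 in iPSCs-w and 0.45 in iPF4-2, against 4.45 in PEF and 0.56 in PAFSC. With this probe set only PEF stood out, and iPF4-2 was the iPS line closest to PAFSC. It lay 0.11 below PAFSC, and above it after median centring or quantile normalization. The mean over the iPS lines differed by -4.48 from PEF and by -0.59 from PAFSC. For iPF4-2 and iPSCs-w alone the difference from PEF was -4.38, and over the other THBS1 probe sets it ran from -6.25 to -1.54.

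In contrast, Ssc.26702.1.A1_at and Ssc.924.1.A1_at had their highest value in PAFSC. Ssc.26702.1.A1_at was -0.00 in PS24, 0.18 in 30AC5, -0.15 in iPSCs-w and 0.00 in iPF4-2, against 1.71 in PEF and 4.56 in PAFSC. Ssc.924.1.A1_at was -0.34 in PS24, -0.79 in 30AC5, -0.68 in iPSCs-w and -0.28 in iPF4-2, against 1.06 in PEF and 3.45 in PAFSC. On the PAFSC array these probe sets lay at the 99.8th and the 99.5th percentile of the relative values. The iPS means differed from PEF by -1.70 and -1.58, and from PAFSC by -4.55 and -3.97.

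Ssc.924.2.A1_at and Ssc.924.3.A1_at were high in both somatic samples. Ssc.924.3.A1_at was -1.76 in PS24, -1.32 in 30AC5, -1.93 in iPSCs-w and -1.12 in iPF4-2, against 4.12 in PEF and 2.34 in PAFSC. Ssc.924.2.A1_at was -5.72 in PS24, -2.02 in 30AC5, -6.10 in iPSCs-w and -0.89 in iPF4-2, against 2.76 in PEF and 2.83 in PAFSC. This was the widest spread of any THBS1 probe set among the iPS lines, with 30AC5 and iPF4-2 well above PS24 and iPSCs-w. On the PS24 array 1 probe set had a lower value, and on the iPSCs-w array 6 did. The mean was -3.68 ± 2.62 (SD, n = 4) for Ssc.924.2.A1_at and -1.53 ± 0.38 (SD, n = 4) for Ssc.924.3.A1_at. The pair of low lines carries 1 array with a low 5′ minus 3′ control value, PS24 at -1.24, and 1 without, iPSCs-w at 0.14. A link between these control values and the THBS1 values was not tested.

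**Figure D1:**
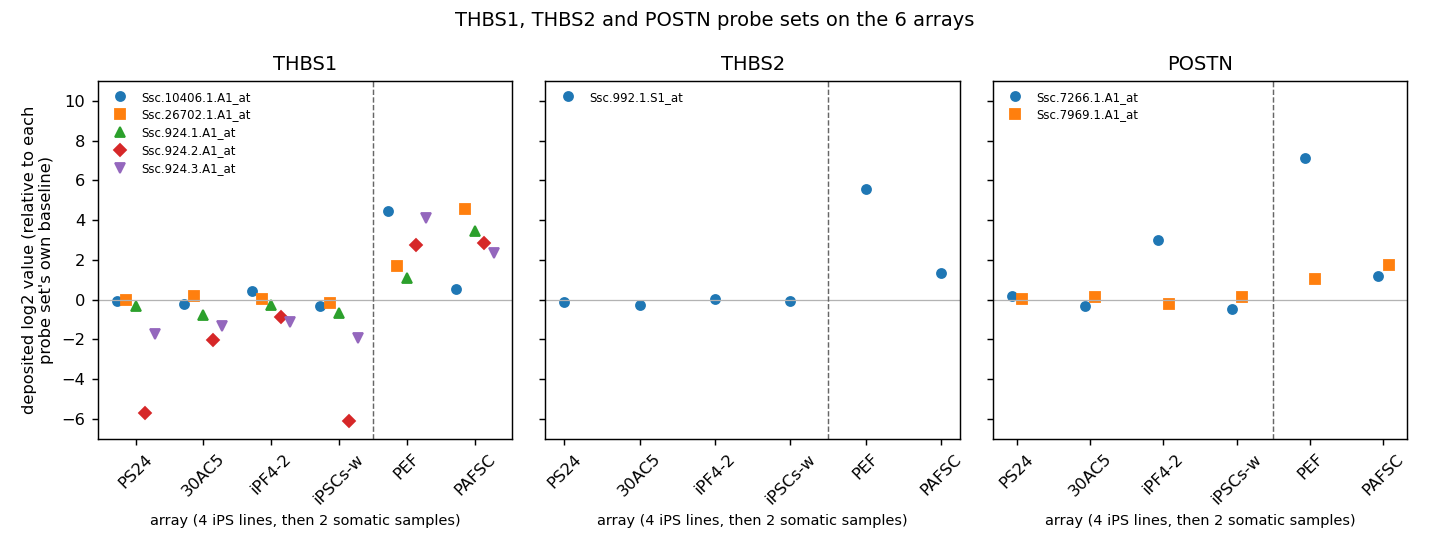
Deposited log2 values (y axis, relative to each probe set's own baseline) of the THBS1, THBS2 and POSTN probe sets on the 4 iPS arrays and, right of the dashed line, the PEF and PAFSC arrays; each point is 1 array. THBS2 lies near 0 in all iPS lines and at 5.59 in PEF, POSTN Ssc.7266.1.A1_at reaches 3.01 in iPF4-2, and THBS1 Ssc.924.2.A1_at is -5.72 in PS24 and -6.10 in iPSCs-w.

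**Figure D2:**
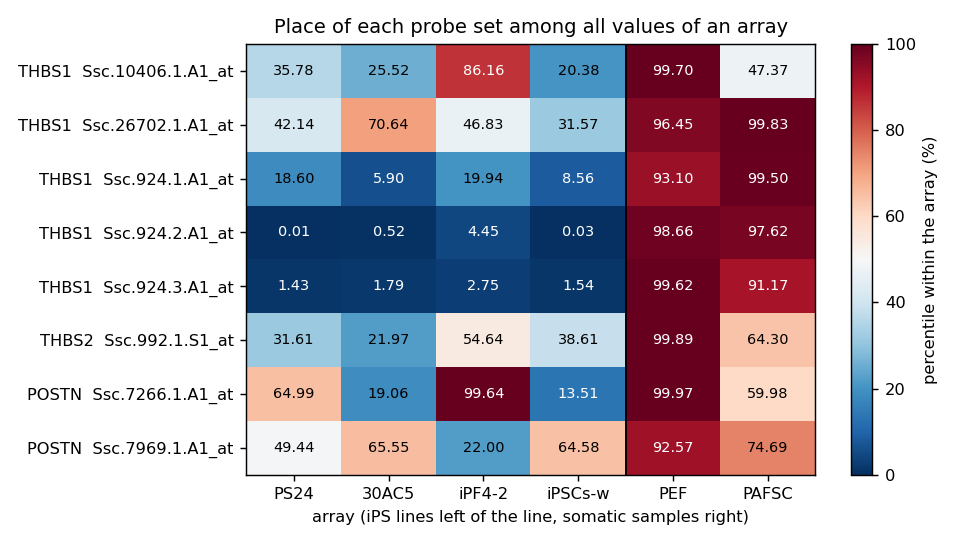
Percentile of each of the 8 probe sets among all 23999 values of the same array (colour and number, in percent), with iPS lines left of the line and somatic samples right of it. On the PEF array all 8 lie at or above the 92.6th percentile, while on the PAFSC array 3 THBS1 probe sets lie at or above the 97.6th and THBS2 and POSTN lie between the 60.0th and the 74.7th.

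Across the 5 THBS1 probe sets, PEF was higher than PAFSC with 2 and PAFSC higher than PEF with 3, one of which differed by only 0.07. The 10 pairwise Pearson correlations among them over the 6 arrays ranged from 0.300 to 0.989, with a median of 0.756. Ssc.10406.1.A1_at followed THBS2 with 0.985 and POSTN Ssc.7266.1.A1_at with 0.953. Ssc.26702.1.A1_at followed Ssc.924.1.A1_at with 0.989 and POSTN Ssc.7969.1.A1_at with 0.963. These values describe 6 arrays that all probe sets share. The probe sequences were not used here, so which THBS1 probe sets report the same transcript was not tested.

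Set together, all 4 iPS lines lay below both somatic samples with 7 of the 8 probe sets, and below PEF with 8 of 8. Over all probe sets this held for 9.99% and 19.1%. Since the genes were chosen for this contrast, nothing is read from these counts. After centring each array on its median, or after quantile normalization, 6 of 8 lay below both somatic samples, because the PAFSC value of THBS1 Ssc.10406.1.A1_at then lay below the value of iPF4-2. The median of all probe sets differed by 0.13 between the iPS mean and PEF, and by -0.69 between the iPS mean and PAFSC.

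A second question was whether the genes differed between iPS lines that carry SSEA1 (PS24, 30AC5) and those with SSEA3 and SSEA4 alone (iPSCs-w, iPF4-2). In limma, fitted over all probe sets and 3 classes, 0 of the 8 probe sets were called, with 0 of 8 at an unadjusted p under 0.05. Over all 23999 probe sets 0.0% were called, and 681 had an unadjusted p under 0.05. The differences were small for THBS2, at -0.18 (SE 1.23, limma adjusted p = 1.00), and for THBS1 Ssc.924.3.A1_at, at -0.02 (SE 0.78, limma adjusted p = 1.00).

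The largest of the 8 differences was that of POSTN Ssc.7266.1.A1_at, at -1.33 (SE 1.86, limma adjusted p = 1.00), and within its SSEA3/SSEA4-only class the lines were 3.01 and -0.48. The lines of the 2 classes lay apart with 1 of 8 probe sets, that of THBS2, whose values were -0.10 and -0.28 against 0.05 and -0.07. Over all probe sets the classes lay apart for 41.2%. The spread in this fit includes the difference between PEF and PAFSC. With only the 4 iPS lines, the SE of THBS2 was 0.25 and the lowest limma adjusted p of the 8 was 0.766. For THBS1 Ssc.924.2.A1_at the difference was -0.37 (SE 1.73, limma adjusted p = 1.00), with -5.72 and -2.02 inside the first class and -6.10 and -0.89 inside the second. Of the 50 partner genes described next, 0 were called by limma between the classes and 3 had an unadjusted p under 0.05, which is 6.0% against 3.22% of all genes.

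The partners of these proteins were then examined through 5 lists, with the probe set of largest range over the arrays standing for a gene. In all, 50 of 75 listed genes were measured. The test set the 4 iPS lines against PEF alone, whose single array was assumed to vary like the iPS lines. The lists were chosen with earlier results of these data known, so the shares of list genes and of all genes are given as a description only. Of the 50 genes, 3 were called lower and 0 higher by limma over all probe sets, against 0.576% lower and 0.0887% higher among all 6765 genes. With both somatic samples as the reference, 0 of 50 were called and 20 had an unadjusted p under 0.05, against 0.0148% called lower and 0.0% higher among all genes, 20.0% of which had an unadjusted p under 0.05.

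Among other matricellular proteins, 9 of 10 measured genes had lower means in the iPS lines than in PEF, with a median difference of -2.28, against 0.15 over all genes. MGP, matrix Gla protein, an inhibitor of calcification, was called lower against the single PEF array. It was 0.33 in PS24, -1.01 in 30AC5, -1.18 in iPSCs-w and -0.12 in iPF4-2, against 6.23 in PEF and 0.83 in PAFSC. The difference from PEF was -6.72 (SE 0.65, limma adjusted p = 0.0338). The call was lost after quantile normalization (limma adjusted p = 0.0851) and without any 1 iPS line, and against both somatic samples the limma adjusted p was 0.299. Like THBS2, MGP stood high in PEF and not in PAFSC.

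The other members of this list did not pass the threshold. TNC, tenascin-C, which binds periostin, differed by -5.90 from PEF (SE 1.03, limma adjusted p = 0.108). SPP1, the bone and matrix protein osteopontin, differed by -5.08 (SE 1.06), and CYR61, the CCN family protein that promotes adhesion, by -3.49 (SE 1.24). SPARC, a collagen-binding glycoprotein, differed by -2.93 (SE 1.42), with the mean lower in 1 of its 2 probe sets. SPARCL1, its relative, ran the other way at 3.38 (SE 1.88), with values of 0.01 in PS24, 4.36 in 30AC5, 4.80 in iPSCs-w and 2.00 in iPF4-2, against -0.59 in PEF.

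Periostin partners and receptors had lower means than PEF in 12 of 13 genes, with a median of -2.51, and 0 of 13 were called by limma, with 9 at an unadjusted p under 0.05 and 1 called after median centring. Among all genes 15.1% had an unadjusted p under 0.05 against PEF. Against PAFSC the median of this list was -2.25, where all genes had -0.20. COL6A3, a chain of type VI collagen, differed from PEF by -5.19 (SE 0.74, limma adjusted p = 0.0705), and COL5A1, a chain of type V collagen, by -4.89 (SE 0.97), lower in 5 of its 6 probe sets. FN1, fibronectin, was 0.84 in PS24, 0.23 in 30AC5, -5.39 in iPSCs-w and 1.00 in iPF4-2, against 2.49 in PEF and -1.25 in PAFSC. So the iPS mean of FN1 with this probe set, at -3.32 from PEF (SE 2.57), was drawn down by 1 line. All 4 FN1 probe sets had lower means than PEF, from -5.15 to -0.20. CCDC80, a matrix-binding protein, differed by -2.66 (SE 1.59).

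The thrombospondin family and its receptors had lower means than PEF in 8 of 11 genes, with a median of -0.94, and 0 were called (1 after median centring). ITGB3, the beta chain of the vitronectin receptor, which binds thrombospondin and periostin, differed most, at -3.16 (SE 0.38, limma adjusted p = 0.0518). Its partner chain ITGAV differed by -1.46 (SE 0.35), and ITGB1, the shared beta-1 chain, by -0.94 (SE 0.42). CD47, the thrombospondin-1 receptor that also restrains phagocytosis, was 0.53 in PS24, -0.75 in 30AC5, -2.25 in iPSCs-w and -1.51 in iPF4-2, against 0.59 in PEF and 0.01 in PAFSC. THBS3, another thrombospondin, differed by -1.27 (SE 0.38), and SDC1, a heparan sulfate proteoglycan, by -1.65 (SE 0.75), lower in 3 of its 4 probe sets.

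Among 7 measured TGF-beta genes, 6 had lower means than PEF, and 7 after quantile normalization or median centring, with a median of -0.38. TGFB3, a TGF-beta ligand, was called lower against the single PEF array. It was 0.23 in PS24, -0.32 in 30AC5, -0.01 in iPSCs-w and -0.02 in iPF4-2, against 2.76 in PEF and 2.66 in PAFSC. The difference from PEF was -2.79 (SE 0.30, limma adjusted p = 0.0370), and that of its other probe set was -0.37. The call was lost after quantile normalization (limma adjusted p = 0.119) and without any 1 iPS line, and against both somatic samples the limma adjusted p was also 0.119. TGFB1, the ligand best known to be activated by thrombospondin-1, differed by -0.11 (SE 0.83), and TGFB2 by -2.41 (SE 1.20). The type I receptor TGFBR1 differed by -0.63 (SE 0.45), lower in 2 of its 3 probe sets, and the signal transducers SMAD3 and SMAD4 by -0.38 (SE 0.55) and -0.15 (SE 0.27).

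Proteases, their inhibitors and angiogenic factors, taken as 1 list, had lower means than PEF in 8 of 13 genes, and in 10 after either scaling. The median was -0.40. In the deposited values the higher genes were MMP9 (0.23) and the angiogenic genes FGF2 (1.44), VEGFA (1.34), KDR (0.06) and FLT1 (0.04). The probe sets of VEGFA ran from -1.46 to 1.34, and those of FLT1 from -0.85 to 0.04. TIMP3, a matrix-bound inhibitor of metalloproteinases, was called lower against the single PEF array. It was -0.14 in PS24, -0.07 in 30AC5, -0.23 in iPSCs-w and -0.15 in iPF4-2, against 2.33 in PEF and 8.20 in PAFSC. The difference from PEF was -2.48 (SE 0.24, limma adjusted p = 0.0347), and over its 3 probe sets it ran from -3.69 to -0.26. As with MGP and TGFB3, the call was lost after quantile normalization (limma adjusted p = 0.109) and without any 1 iPS line, and against both somatic samples the limma adjusted p was 0.216. PLAU, the urokinase plasminogen activator, differed by -5.18 (SE 0.77, limma adjusted p = 0.0785) and TIMP2 by -4.31 (SE 0.53, limma adjusted p = 0.0523). TIMP1 differed by -2.11 (SE 0.57), and MMP2, the protease that thrombospondin-2 helps to clear, by -1.64 (SE 0.70).

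**Figure D3:**
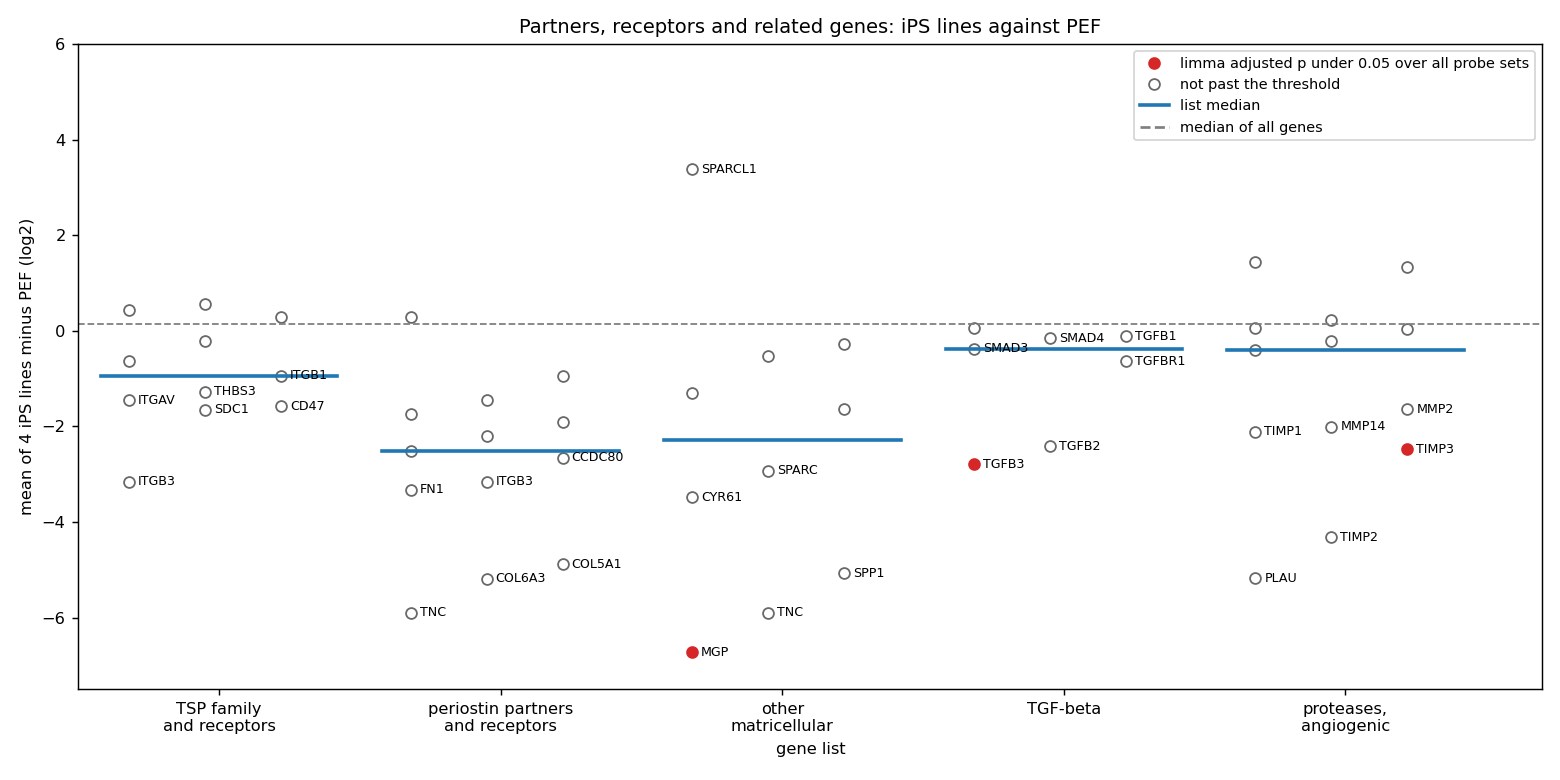
Difference of the mean of the 4 iPS lines from PEF (y axis, log2) for each measured gene of 5 lists; filled points passed the limma threshold over all probe sets, bars are list medians and the dashed line is the median of all genes, 0.15. MGP, TGFB3 and TIMP3 are the filled points, and SPARCL1 lies highest at 3.38.

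Markers of cells that could hold these transcripts were measured as well. Fibroblast and mesenchymal genes had lower means than PEF in 10 of 12, with a median of -3.58, and 1, S100A4, was called. It was also the 1 gene called lower against both somatic samples, a call lost after quantile normalization and after median centring. S100A4, which binds calcium and is used as a fibroblast marker, differed by -5.43 (SE 0.57, limma adjusted p = 0.0351). The call against PEF was lost after quantile normalization and without any 1 iPS line. Endothelial and platelet genes, whose cells also make thrombospondin-1, had a median difference of 0.21 from PEF and of -2.18 from PAFSC over 9 genes. Over all genes these medians were 0.15 and -0.20. Against PEF 0 of the 9 were called by limma (1 at an unadjusted p under 0.05, and 1 called after median centring). Against both somatic samples the median of the 9 was -0.97, and -0.33 after quantile normalization, where PECAM1 and ITGA2B turned from lower to higher. ERG, an endothelial transcription factor, ran against the median difference from PEF, at -3.86 (SE 0.48, limma adjusted p = 0.0523). The mean of these 9 was 0.74 in PS24, 0.07 in 30AC5, -0.23 in iPSCs-w and -0.08 in iPF4-2, against 0.27 in PEF and 2.37 in PAFSC. In PS24 this mean was drawn up by SELP, at 5.07, and in PEF by ERG, at 3.62. The median of these 9 genes was 0.30 in PS24, 0.08 in 30AC5, -0.01 in iPSCs-w and -0.09 in iPF4-2, against -0.14 in PEF and 2.05 in PAFSC. Their part in the values of THBS1, THBS2 and POSTN was not tested. The 5 pluripotency markers measured had higher means in the iPS lines than in PEF, with a median of 1.74, and 0 were called. Their mean was 2.17 in iPF4-2 and 2.79 in iPSCs-w but -0.36 in PS24 and -0.58 in 30AC5, against -0.77 in PEF and 0.59 in PAFSC. In both PS24 and 30AC5, POU5F1, DNMT3B and EPCAM were higher than in PEF, and DPPA5 and ZFP42 were lower.

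Finally, the genes whose profile over the 6 arrays was most like each member were ranked by Pearson correlation, among 4622 other genes with a range of at least 2. THBS2 was followed most closely by SCG2, a secretory granule protein (0.999), TMEM26, a membrane protein (0.998), TTN, the sarcomere protein titin (0.996), ITGA8, an integrin chain (0.994), and MYL1, a myosin light chain (0.994). SCG2 was 0.01 in PS24, -0.11 in 30AC5, -0.20 in iPSCs-w and 0.18 in iPF4-2, against 5.27 in PEF and 1.24 in PAFSC. In all 5 genes PEF was the highest array and PAFSC lay between PEF and the iPS lines, as with THBS2. The genes were picked for this likeness, so the shared shape follows from the choice.

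POSTN Ssc.7266.1.A1_at was followed by PLXDC2, a plexin domain protein (0.990), LUM (0.989), SERPINF1, an anti-angiogenic serpin (0.980), PTGS2, the inducible cyclooxygenase (0.979), and ANGPT1, a ligand of the receptor TEK (0.977). PTGS2 was -1.53 in PS24, -1.96 in 30AC5, -1.22 in iPSCs-w and 1.26 in iPF4-2, against 3.72 in PEF and 0.14 in PAFSC. In all 5 genes iPF4-2 was the highest iPS line, as it was with this POSTN probe set. They were picked for their correlation with it, so this is no separate finding.

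THBS1, represented by Ssc.924.2.A1_at, was followed by CITED2, a transcriptional co-regulator (0.989), ACTA2, smooth muscle actin (0.982), LOX, which cross-links collagen (0.975), CDH11, a mesenchymal cadherin (0.965), and ITGA5, a fibronectin receptor chain (0.962). ACTA2 was -5.11 in PS24, -2.77 in 30AC5, -4.83 in iPSCs-w and -0.33 in iPF4-2, against 2.72 in PEF and 1.74 in PAFSC. CDH11 was -4.42 in PS24, -1.27 in 30AC5, -7.13 in iPSCs-w and -0.01 in iPF4-2, against 1.85 in PEF and 2.20 in PAFSC. PS24 and iPSCs-w were the lowest arrays for all 5, which again follows from picking genes by correlation with this probe set.

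With 6 points, high correlations were common: 41, 89 and 40 genes reached 0.9 with THBS1, THBS2 and POSTN. Without PAFSC, the 5 nearest genes shared 0 with the first ranking for THBS1, 3 for THBS2 and 2 for POSTN. With Spearman correlation over 6 arrays 17, 6 and 5 genes tied at the highest value, so for THBS1 and THBS2 no 5 nearest genes could be told apart. The 5 tied genes of POSTN shared 0 with its first ranking.

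**Figure D4:**
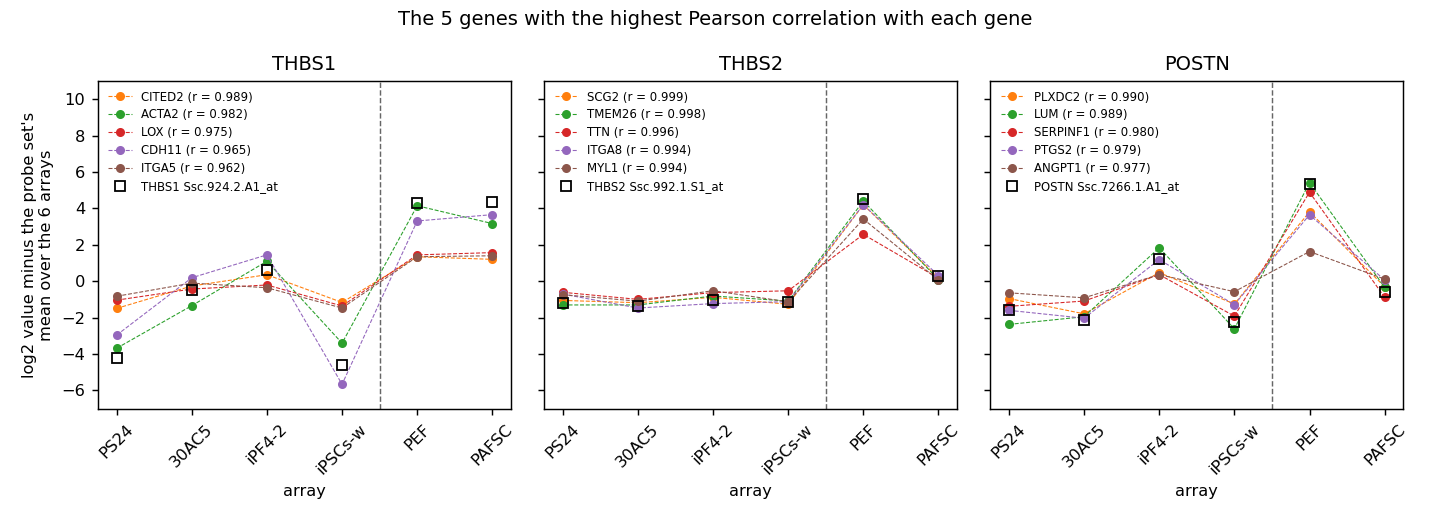
Log2 value minus the probe set's mean over the 6 arrays (y axis) for 1 probe set of THBS1, THBS2 and POSTN (open squares) and the 5 genes with the highest Pearson correlation with it (points joined by dashed lines); iPS lines are left of the vertical line and PEF and PAFSC right of it. The THBS2 set peaks in PEF alone, the POSTN set has a second high point in iPF4-2, and the THBS1 set is lowest in PS24 and iPSCs-w.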

How the data were processed

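Biotin-labelled cRNA was hybridised to the Affymetrix GeneChip Pig Genome Array, per the labels' protocols. The authors deposited log2 values, 0 of them missing, of 24123 probe sets and 6 arrays. Their software, normalization and baseline were not given in the sources used here. Left out were 124 control probe sets. The platform annotation gave 1 symbol to 10069 of the remaining 23999; it names no genome build, so no coordinates are printed, and sequences were not used here.

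All tests were two-sided fits of limma 3.58.1 in R 4.3.3, with lmFit and eBayes. P-values were adjusted by Benjamini-Hochberg over every probe set (threshold 0.05), and the fits were checked on simulated data. The fits were iPS lines against somatic samples (residual df 4), against PEF (df 3), and between iPS classes (3 classes, df 3). P-values measure the spread between samples not stated to be separate cultures. Named were the members, up to 6 genes per partner list with the largest difference from PEF, and called genes. Some marker genes, the genes of the protease list with means above PEF and the 5 most similar genes per member were named too. The members and lists were chosen with earlier results of these data known. Planned promoter motifs were not run. Alternatives were quantile normalization, median centring, leaving out the lowest 40% by mean, eBayes with a trend, only the 4 iPS lines, Spearman correlation, averaged probe sets and each sample left out.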

Additional observations from a re-analysis of the deposited data

Results flagged for a closer look

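Among 67 of the probe sets named or counted above, 5 had 1 iPS line far from the other 3 by Dixon's gap, where chance flags about 1 in 20. None of the 8 probe sets of THBS1, THBS2 and POSTN was among them. FN1 was -5.39 in iPSCs-w, with 0.23 to 1.00 in the other lines. TGFB2 was 2.72 in iPSCs-w, with -0.30 to 0.12 in the others. LUM was 3.77 in iPF4-2, with -0.69 to -0.02 in the others. FAP was -0.37 in iPF4-2, with -1.74 to -1.53 in the others. SELP, an adhesion molecule of platelets and endothelium, was 5.07 in PS24, with 0.00 to 0.20 in the others.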

How the results depend on the processing

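For the iPS lines against somatic samples limma called 6 probe sets, and 1 after median centring, 35 with the lowest 40% by mean left out, 2 with a trend and 0 to 14303 with 1 sample left out (14303 without PEF, 136 without PAFSC, 1 without iPF4-2, 0 without PS24, 30AC5 or iPSCs-w). Against PEF alone it called 136, and 17 after quantile normalization and 0 to 19 with 1 line left out (19 without iPF4-2). Between the iPS classes it called 0, and 90 after quantile normalization, 44 with the lowest 40% left out, 4 with only the 4 iPS lines and 0 to 4 with 1 sample left out. The cause was not tested. A lone array was assumed to vary like the other groups.

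The differences of the 8 probe sets from the somatic mean and from PEF kept their sign in every setting tried. THBS2 ran from -5.69 without PAFSC to -1.46 without PEF, and POSTN Ssc.7266.1.A1_at from -6.51 to -0.58 in the same settings. Between the iPS classes no probe set was called in any setting, and signs turned with 1 sample left out. The ranges were -0.58 to 0.18 for THBS1 Ssc.10406.1.A1_at, -0.31 to 0.14 for Ssc.924.1.A1_at, -2.98 to 2.23 for Ssc.924.2.A1_at and -0.42 to 0.39 for Ssc.924.3.A1_at. They were -3.07 to 0.41 for POSTN Ssc.7266.1.A1_at and -0.056 to 0.33 for Ssc.7969.1.A1_at. With a gene's probe sets averaged, the class difference was -0.10 for THBS1, where Ssc.26702.1.A1_at alone had 0.16, and -0.60 for POSTN, where Ssc.7969.1.A1_at alone had 0.14.

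No paired analysis was possible because the labels give the groups no shared replicate numbers.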
